A study of Mus musculus with 3 samples.

Results

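The genes that lie on either side of Pim1 on mouse chromosome 17 were compared between cells with and without that gene. The set was chosen by position: probes on chromosome 17 between 27000000 and 31500000 in the coordinates of the array files (build mm8), with Pim1, Cdkn1a and all names that start with Rps left out. Of 41174 probes on the array, 125 met this rule. A RefSeq gene could be named for 105 of them, in 70 genes, and 20 kept the name of the array design. Distances are given from position 29.22 Mb, where Pim1 lies.

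RNA came from primary cells that the labels called mouse aortic endothelial cells, taken from 2 kinds of FVB/N mice, Pim1 knockout and wildtype, all labelled female and 12 weeks old. Cells of both were kept in DMEM with serum on gelatine-coated dishes, and RNA was taken 24 hours after seeding. Knockout RNA in Cy5 was hybridised against wild-type RNA in Cy3 on 3 two-colour arrays, labelled as biological replicates. No dyes were swapped, the sources used here do not say if 1 wild-type pool served all arrays, and p-values measure the spread between these 3 arrays only. All ratios are knockout over wild type on the log2 scale, so that 1 is a doubling, and errors are SDs over 3 arrays. A probe was called where limma, fitted over all tested probes of the array with Benjamini-Hochberg adjustment, gave an adjusted p under 0.05.

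When a gene is targeted in embryonic stem cells and the allele is bred onto another strain, DNA on both sides of the target stays linked to it for many generations, and sequence of the donor strain can remain there. Genes of such a flanking segment can differ between a knockout and its wild type for reasons that have nothing to do with the targeted gene, and a probe can also bind less well where the strains differ in sequence. The strain of the stem cells, the number of backcrosses and the part of Pim1 that was removed are not given in the sources used here. Neither a segment of donor DNA nor its length was tested, since the files hold no genotypes.

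Sequences of 13 probes are shown because both runs of neighbouring called probes, the largest fall of the window and 2 of the disagreements between probes of 1 gene rest on them. Each line gives the first 30 of the 60 bases, 5′ to 3′ as deposited, and the mm8 coordinates of the whole probe. None of the bases is marked. The exon or UTR in which a probe lies was not looked up, because no mm8 annotation was used here. The coordinates of the first Zfand3 probe and the second Btbd9 probe span far more than 60 bases, so those probes match the genome in pieces.
Fkbp5 (chr17:28127522-28127581, minus strand): ggcattgaattagggcaaatcttaaatagt
Fkbp5 (chr17:28128237-28128296, minus strand): cacactgcagaaaccgttgataaaacaaac
6030422H21Rik (chr17:28150080-28150139, minus strand): gcagtatattcttttcaggtgttttagagg
Fkbp5 (chr17:28165639-28165698, minus strand): gaggccccaatgtttggtgacaaagtttat
Mapk13 (chr17:28506061-28506120, plus strand): aaggactcacggcgacgaagtggcatgaag
Zfand3 (chr17:29862507-29880363, plus strand): tacagaggaatgtgggccatgcacagacac
Zfand3 (chr17:29936840-29936899, plus strand): tgttacgtgtaagggaagctgaagttcttg
Btbd9 (chr17:29944794-29944853, minus strand): gcagatgtcatcactggggctttgagaagt
Btbd9 (chr17:30001923-30026551, minus strand): ctcaatacggttattactctgggactgcga
Btbd9 (chr17:30240596-30240655, minus strand): acgaacttgattggatcagagtgatcgatc
0710001D07Rik (chr17:30304065-30304124, plus strand): agacttaattccaagcaaagacgacttaaa
Glo1 (chr17:30320018-30320077, minus strand): attctcagaggtgatttgaagactcaacaa
Glo1 (chr17:30321137-30321196, minus strand): actggattgagattctgaatcctaacaaaa

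In the knockout channel 54.2% to 57.5% of spots were well above background, and in the wild-type channel 58.7% to 62.8%. The Pim1 probe on the sense strand read −0.97, −1.16 and −0.99 (adjusted p = 0.00297), and it checks the labels only if it lies in the part that was removed. Of 9 endothelial markers, Pecam1, Cdh5, Tie1 and Erg were above background on no array in either channel, and 2 were tested. Endoglin, Eng, was called higher (log2 ratio 2.51, adjusted p = 0.000441) and the VEGF receptor gene Kdr was not called (−0.229, adjusted p = 0.229). The summed signal of the list, which holds Eng, ran from 3580 to 4290 in the knockout channel and from 1100 to 1260 in the wild-type channel. Mesothelial and epithelial markers were called lower for 5 of 6 genes (summed signal 6550 to 7000 against 71800 to 93300). Fibroblast markers were called higher for 5 of 6 and lower for 1 (194000 to 219000 against 170000 to 205000). Smooth muscle and pericyte markers were called higher for 1 of 6 and lower for 2 (54000 to 57100 against 52300 to 64600), and macrophage markers lower for 1 of 3 tested, with Ptprc not above background on any knockout array (505 to 549 against 685 to 1190). The Y-linked genes Ddx3y, Eif2s3y and Kdm5d were above background on 3 arrays in the knockout channel and on 0 in the wild-type channel. Uty, also Y-linked, was above background on 2 knockout and 0 wild-type arrays and was not called (log2 ratio 0.324, adjusted p = 0.0719). Xist was called lower (−7.4, adjusted p = 0.000129), its brightest probe being above background on 0 knockout and 3 wild-type arrays. These values do not match the label of the knockout cells as female, and the sex of the cells and their genotype cannot be told apart. The part of these differences in the results on the flanking genes was not tested, and fewer cells of a type and less RNA per cell cannot be told apart in these cultures.

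Most genes beside Pim1 had ratios close to 0. Of the 125 probes, 80 were tested, that is, were detected well over background by at least 2 arrays in the same channel; 42 of the other probes were above background on no array in either channel. Of the 80, 5 (6.25%) were called higher and 9 (11.2%) lower, against 7.62% and 9.53% of all 25080 tested probes. Together 14 of 80 were called (17.5%, against 17.1% of all), a share near the background and so not a result about the window. Each of the 14 had the same sign on all arrays and was above background on all arrays in both channels. Taking the brightest tested probe on a gene's own strand for each gene, 1 of 47 genes was called higher and 6 lower (14.9% in all, against 20.1% of 13463 tested genes, with 8.68% higher and 11.4% lower). At an unadjusted p under 0.05, 13 of the 47 passed, and 40 of the 47 lay within 0.5 of 0 on the log2 scale. The shares of all genes at these limits are not given here, so both counts are no result about the window. The median log2 ratio was −0.021 over the 47 genes, −0.016 over all genes and −0.0083 over the other 597 tested genes of chromosome 17. The median size of the log2 ratio was 0.165, 0.211 and 0.19 in these sets. Of the other genes of chromosome 17, 17.3% were called.

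Distance from Pim1 did not order the size of the ratios. Within 0.5 Mb of Pim1, 1 of 11 genes was called (9.09%), against 2 of 9 between 0.5 and 1 Mb (22.2%), 2 of 10 between 1 and 1.5 Mb (20.0%) and 2 of 17 farther out (11.8%). The median size of the log2 ratio in these bins was 0.163, 0.128, 0.231 and 0.128, so the nearest genes did not have the largest ratios. Across the 47 genes, which share their arrays and are not independent replicates, Spearman's rank correlation of size and distance was 0.045, and on the single arrays it was −0.0656, 0.0982 and 0.0979. It was 0.117 for the 29 genes below Pim1 and 0.0299 for the 18 above it. With the scanner software's log ratio it was 0.188, and without replicate 1 it was −0.0956. The rest of chromosome 17 was cut into blocks of 4.5 Mb, the width of the window. In the 7 blocks with at least 20 tested genes, between 4.0% and 34.8% of the genes were called (median 21.4%), and the median size of the ratio ran from 0.145 to 0.246. Both values of the window lay inside these ranges.

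The tested genes nearest to Pim1, which like Cdkn1a was left out of the set, were not called. Between the nearest called probe below Pim1, for Mapk13 at 0.714 Mb, and the nearest above it, for Mdga1 at 0.339 Mb, lay 27 tested probes of 13 named genes and some unnamed clones, over 1.05 Mb. Their log2 ratios ran from −0.40 to 0.359. The stretch was drawn between called probes, so that it holds none follows from how it was drawn and is no finding. On the lower side, the mitochondrial membrane protein gene Mtch1 read −0.76, −0.19 and −0.18 on the 3 arrays (adjusted p = 0.148). Array 1 was the lowest of the 3, and the sign was the same on each. Pi16, a secreted peptidase inhibitor, read −0.19 ± 0.27 (adjusted p = 0.392). The unnamed open reading frame BC004004 read −0.08 ± 0.03 at its brightest probe (adjusted p = 0.582) and −0.30 ± 0.17 at its other tested probe (adjusted p = 0.119). Ppil1, a prolyl isomerase of the spliceosome, read 0.01 ± 0.08 (adjusted p = 0.939) and Cpne5, a calcium-dependent phospholipid-binding copine, 0.23 ± 0.19 (adjusted p = 0.222).

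On the upper side, the cap methyltransferase gene Cmtr1 read 0.51, 0.34 and 0.22 (adjusted p = 0.0714), higher in the knockout on all 3 arrays but short of the threshold. Tbc1d22b, of a family that acts on Rab GTPases, read −0.0012 ± 0.11 (adjusted p = 0.996). Rnf8, a ubiquitin ligase of the DNA damage response, read −0.02 ± 0.14 (adjusted p = 0.921). Ccdc167, a coiled-coil gene, read −0.18, 0.64 and −0.07 at its brightest probe, where array 2 alone was above 0 (adjusted p = 0.681). Its other probe read −0.11, −0.09 and 0.12 (adjusted p = 0.898). Mdga1, the fifth gene on this side, encodes a membrane-anchored immunoglobulin-domain protein known from neurons. Its log2 ratio was −0.59, −0.32 and −0.48, so that all 3 arrays were below 0, with a mean of −0.46 ± 0.14 (adjusted p = 0.0358). The call was lost without replicate 2 (adjusted p = 0.142), without replicate 3 (0.21), with median centring (0.108) and with the software's log ratio (0.0629).

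Among 12 tested genes listed under signalling and kinases, 3 were called lower and none higher, with a median of 0.0013. That is 25.0% called, against 20.1% of all tested genes. The list is broad, and the zinc finger gene Zfand3 is among the 3. The role lists hold 3 to 12 tested genes each, and their counts describe the members and are no result about a list. The largest fall of the window was that of Mapk13, the gene of the p38 delta MAP kinase. Its normalised log2 level was 9.77, 9.67 and 9.56 in the knockout channel and 11.89, 11.97 and 12.23 in the wild-type channel. The channels did not overlap, with a distance of about the same size on each array. Mapk13 was thus lower by 5.15-fold in the knockout at its 1 tested probe (log2 ratio −2.36 ± 0.29, adjusted p = 0.000657). It was called in all 14 alternatives that refit the probe (highest adjusted p 0.0134). The neighbouring gene Mapk14, which encodes p38 alpha and lies 0.744 Mb from Pim1, read 0.22, 0.05 and 0.07, with a mean of 0.11 ± 0.09 (adjusted p = 0.477).

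Pde9a, which encodes a phosphodiesterase that breaks down cyclic GMP, was also called lower. The knockout channel stood at 6.97, 6.97 and 6.96 and the wild-type channel at 9.18, 8.07 and 8.30. The spread lay in the wild-type channel, where array 1 was highest, and the channels did not overlap. The fall was 2.94-fold (log2 ratio −1.55 ± 0.59, adjusted p = 0.0111). The log2 ratio was −2.30 with the software's log ratio, and the call was lost without replicate 3 (adjusted p = 0.0746). Zfand3, a zinc finger gene, read −0.98, −0.64 and −0.33 at its brightest probe. All 3 arrays were below 0, in a mean of −0.65 ± 0.32 (adjusted p = 0.0366), although its other probe read 0.20, 0.33 and 0.03. Kctd20, one of the brightest genes of the list, read −0.22, 0.13 and 0.32 at its brightest probe (adjusted p = 0.74), with array 1 below 0 and the others above it. Its other tested probes were above 0 on all arrays, with means of 0.27 and 0.15, and were not called.

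Def6, a guanine nucleotide exchange factor known from lymphocytes, lay at the threshold and is named here after its values were seen. Its brightest probe read 0.17, 1.09 and 1.13 (mean 0.80 ± 0.54, adjusted p = 0.0564) and its second probe 0.23, 1.25 and 1.05 (mean 0.84 ± 0.54, adjusted p = 0.0493). Array 1 was low at both probes. Without replicate 1 the ratios were 1.11 and 1.15 (adjusted p = 3.81e-09 and 2.25e-09). That fit rests on 2 arrays and called 41.6% of all genes, so its small p-values do not set Def6 apart. Both probes missed the threshold without replicate 2 (0.272 and 0.241) and without replicate 3 (0.273 and 0.245).

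Of 9 tested genes of transcription, chromatin and DNA repair, 1 was called lower and none higher (median −0.021). That gene was Hmga1, which encodes an architectural chromatin protein. Its log2 level was 16.13, 15.63 and 16.13 in the knockout channel and 16.58, 16.95 and 17.02 in the wild-type channel. The knockout was below the wild type on every array, least on array 1. The log2 ratio was −0.89 ± 0.44 (adjusted p = 0.0274). It fell short without replicate 2 (adjusted p = 0.137), without replicate 3 (0.158), without a filter on dim probes (0.0553) and with median centring, where the log2 ratio was −0.49 (adjusted p = 0.229). Fance, a Fanconi anaemia repair gene, read 0.25 ± 0.12 (adjusted p = 0.152), and Ppard, a nuclear receptor, was above background on 2 arrays in the knockout channel and on none in the wild-type channel (log2 ratio 0.22 ± 0.12, adjusted p = 0.194).

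None of the 7 genes of RNA processing and translation was called, and their log2 ratios ran from −0.163 to 0.359. All 7 were above background on all arrays in both channels. The ribosomal protein gene Rpl10a read 0.05, 0.32 and 0.20 (adjusted p = 0.269) and the splicing factor gene U2af1 read 0.15, −0.17 and 0.17 (adjusted p = 0.817). Rpl10a was above 0 on all 3 arrays, whereas array 2 of U2af1 was below 0.

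Among 9 tested genes listed under mitochondria, metabolism and transport, 1 was called higher and 1 lower (median −0.11). Fkbp5 encodes a co-chaperone of Hsp90 that is known as a target of the glucocorticoid receptor. Its brightest probe stood at 9.79, 10.12 and 10.45 in the knockout channel and at 8.79, 9.19 and 9.36 in the wild-type channel, and the channels did not overlap. The gene was 2.00-fold higher in the knockout (log2 ratio 1.00 ± 0.08, adjusted p = 0.00298). The second probe read 0.80, 0.69 and 0.92 (adjusted p = 0.00688) and the third 0.89, 0.61 and 0.70 (adjusted p = 0.0102), both above 0 on each array. The probe of the clone 6030422H21Rik lies between them on the same strand and read 1.29, 0.87 and 1.27 (adjusted p = 0.00433). These 4 neighbouring tested probes covered 38.2 kb and were all called higher, so all tested Fkbp5 probes were higher. The clone cannot be told apart from the Fkbp5 transcript here, and it was named after its values were seen. Without replicate 3 all 4 probes missed the threshold, the 3 Fkbp5 probes with adjusted p = 0.0516, 0.0835 and 0.0949 and the clone with 0.0589. Without replicate 2 the 2 dimmer Fkbp5 probes missed it (0.0588 and 0.0734).

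Glo1 encodes glyoxalase 1, which detoxifies methylglyoxal, and is known to be expressed at different levels in different inbred mouse strains. Its brightest probe stood at 12.55, 12.63 and 12.45 in the knockout channel and at 13.66, 13.52 and 13.44 in the wild-type channel, again with no overlap. Its level was lower by 2.00-fold in the knockout (log2 ratio −0.997 ± 0.10, adjusted p = 0.00328). The gene's second probe read −1.12, −0.84 and −0.78 (adjusted p = 0.00646), and so had the same sign and a similar size. Without replicate 3 both probes missed the threshold (adjusted p = 0.0522 and 0.0583), and without replicate 2 the second one did (0.0623). The other tested genes of this list included Cbs, which makes cystathionine (log2 ratio −0.11 ± 0.11), the cholesterol exporter Abcg1 (−0.31 ± 0.16), and Nudt3, a phosphohydrolase (0.01 ± 0.05). None of these was called (adjusted p = 0.513, 0.107 and 0.952). Abcg1 was above background on no array in the knockout channel. It was called with no background subtraction, an offset of 0, the software's log ratio or the value table made from it, an intensity trend, and without replicate 1.

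Of 16 genes listed as known for expression outside the vessel wall, 15 had a probe and 10 were above background on no array in either channel. These 10 included Dnah8, an axonemal dynein of cilia and sperm, Clps, the pancreatic colipase, the trefoil factors Tff2 and Tff3, and Cryaa, a lens crystallin. The 3 tested were Mdga1, Tulp1, a photoreceptor gene (log2 ratio −0.04 ± 0.01, adjusted p = 0.808), and the gastric trefoil factor gene Tff1. Tff1 was above background on 1 array in the knockout channel and on 3 in the wild-type channel, with a log2 ratio of 0.12, 0.10 and −0.07 (adjusted p = 0.77). None of the 7 tested genes outside these role lists was called. In all, 23 of the 70 named genes had no tested probe.

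The called probes stood on both sides of Pim1. Below Pim1, 5 of 49 tested probes were called higher and 2 lower. Above Pim1, 0 of 31 were called higher and 7 lower. Over the whole array 7.62% of tested probes were called higher and 9.53% lower, and the difference between the sides was not tested. Besides the 4 probes of Fkbp5 and the clone 6030422H21Rik, 4 neighbouring tested probes of Btbd9, the clone 0710001D07Rik and Glo1 were called lower. They covered 80.6 kb between 1.02 and 1.10 Mb above Pim1. Thus 8 of the 14 called probes stood in 2 runs. Runs were sought in the window only, so their number cannot be set against the rest of the array and is no result about the window. Probes of 1 gene share their target, so a run is not a count of independent changes. The clone 0710001D07Rik read −0.89, −0.39 and −0.48 (mean −0.59 ± 0.26, adjusted p = 0.0359). It lost its call in 4 of 14 alternatives, and was named after its values were seen. Beyond Glo1, the 3 Dnah8 probes and the Glp1r probe were above background on no array, and the next tested probe was that of Abcg1 at 1.62 Mb. The far end of the run was therefore not measured.

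Probes of the same gene could differ. Of 20 genes with at least 2 tested probes, 13 had the same sign in all of them. The called genes Mapk13, Pde9a, Hmga1 and Mdga1 had 1 tested probe each, so their falls could not be compared with a second probe. The difference between the brightest probe and each other probe was tested within arrays, a comparison chosen after seeing the data. Of 24 such pairs, 4 differed (16.7%, against 16.9% of 8629 pairs over the whole array), which is near the background. They belonged to 3 genes, Btbd9, Ndufv3 and Zfand3.

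Btbd9, a BTB-domain gene, showed the widest gap. The probe at 1.02 Mb stood at 8.27, 8.36 and 8.27 in the knockout channel and at 10.49, 10.37 and 10.57 in the wild-type channel. Its signal was lower by 4.52-fold in the knockout (log2 ratio −2.17 ± 0.15, adjusted p = 0.000417). The brightest probe of the gene read −0.07, 0.02 and −0.11 (adjusted p = 0.762) and the other probe 0.03, 0.26 and −0.11 (adjusted p = 0.754). These probes are nearer to the end of the gene in the direction of transcription, so the fall was seen only at the most upstream of the 3 tested probes. The within-array difference between the upstream and the brightest probe was −2.15, −2.03 and −2.18 (mean −2.12, adjusted p = 0.00066). The upstream probe was called in all 14 alternatives (highest adjusted p 0.0133), and the other probes in none of them.

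In Zfand3, the probe farther along the gene read −0.65 and the other 0.19 on average, and the difference was 1.18, 0.97 and 0.35 (mean 0.84, adjusted p = 0.033). The difference had the same sign on each array but was smallest on array 3. With the mean of its probes Zfand3 read −0.23 and was not called (adjusted p = 0.177). Ndufv3 encodes a subunit of respiratory complex I. None of its 3 probes was called, at −0.22, 0.28 and 0.44, but the others differed from the brightest by 0.51 (adjusted p = 0.0406) and 0.66 (adjusted p = 0.0192). Without replicate 2, 1 of the 3 genes still had a pair that differed, and it was Btbd9 (adjusted p = 0.0184).

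The arrays differed in how far they matched each other. Across the 80 tested probes, which share their arrays and are not independent, Pearson's r of the log2 ratios was 0.927 between arrays 2 and 3 and 0.731 and 0.794 between array 1 and these. Over the whole array the values were 0.905, 0.681 and 0.699. For the probes that were not called, r was 0.739 between arrays 2 and 3 and 0.0908 and 0.169 with array 1. Of the 47 genes, 25 had the same sign on all arrays, array 1 was opposite to the others for 7, array 2 for 10 and array 3 for 5. Without replicate 1, 12 genes of the window were called (25.5%, against 41.6% of all genes). Without replicate 2, 4 were called (8.51% against 4.97%), namely Fkbp5, Glo1, Mapk13 and Pde9a. Without replicate 3, Mapk13 was the 1 gene called (2.13% against 4.7%), and the upstream Btbd9 probe was the 1 other probe. Mapk13 and the upstream Btbd9 probe were thus the measurements of the window that stayed called whichever array was left out. Leaving out array 2 or 3 also lowered the called share over all genes, from 20.1%. A lost call therefore need not mean that a ratio rested on 1 array. Without replicates 1, 2 and 3, Fkbp5 read 1.01, 1.04 and 0.96, and Glo1 −0.944, −1.05 and −1.0. Pde9a moved more, at −1.22, −1.78 and −1.66.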

How the data were processed

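Each deposited file held 45018 spots of 1 two-colour array, with pixel intensity, local background intensity, flags and a log10 ratio of red over green per spot, per the file headers. The scanner software was Agilent Feature Extraction 9.5.3.1, per the submitters' processing notes. The deposited value table held the same log10 ratio (largest difference 0, median 0). From the mean intensities, background was corrected with normexp (offset 50, which pulls ratios of dim probes towards 0) and log2 ratios were normalised by loess within arrays with 1639 control spots at weight 0. Flagged spots (121 to 140 per array) were left out, and no spot was saturated. Spots of 1 probe were averaged, and channel levels are values after Aquantile normalisation, open to dye bias. Probes above background in 1 channel on at least 2 arrays were tested against 0 with limma 3.58.1 (lmFit, eBayes) in R 4.3.3, with Benjamini-Hochberg adjustment. The number of arrays limits the precision.

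Names came from RefSeq (GRCm38, names only: 84 members by accession, 13 by symbol and 8 by synonym), and 253 probes against their gene's strand were left out of gene values. The members and role lists were chosen with earlier results of these data known. Named genes were up to 26 called genes whose arrays had 1 sign, the 5 tested genes nearest to Pim1 on each side, the 2 brightest tested genes of each role list and genes with probes called in opposite directions, 22 in all. Others are named as chosen after their values were seen, or in lists. Alternatives covered background, normalisation, filter, flags, variance model, threshold, window, gene summary and leaving out each replicate.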

Additional observations from a re-analysis of the deposited data

How the results depend on the processing

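Of the 105 alternative values of the 7 called genes, 19 lost the call and 0 changed direction, and of 224 for the 15 named genes that were not called, 0 gained one. Abcg1 and Def6, which are not among these 15, were called in some alternatives: both with no background subtraction, an offset of 0, an intensity trend and without replicate 1, Abcg1 also with the software's ratio and the value table, and Def6 also with median centring. AI413582, Brpf3 and Srsf3, also outside these 15, were called without replicate 1. With the mean of probes 7 genes were called although Zfand3 was not. A gene outside the 7 of the main fit was thus called there, and it is not named here. When single replicates were left out, the count of called probes, 14, ran from 2 (2.5%, against 3.46% of all probes) to 25 (31.2% against 36.6%). That of called genes, 7, ran from 1 (2.13%, against 4.7% of all genes) to 12 (25.5% against 41.6%). An adjusted p under 0.01 left 7 probes and 3 genes, and the shares of all probes and genes at that threshold are not given here. Within 1 Mb of Pim1, 3 of 20 genes were called (15.0%), and within 5 Mb 33 of 190 (17.4%, median size 0.19), against 20.1% of all genes. The median size of the log2 ratio was 0.192 without background subtraction, 0.223 with an offset of 0, 0.234 with the software's log ratio and with the value table, 0.215 with median centring, 0.0998 without a filter, and 0.15 to 0.224 without single replicates. With median centring the median ratio was 0.0917 (0.0822 over all genes), and Fkbp5 and Def6 were called higher and Mapk13, Glo1 and Pde9a lower. Spearman's rank correlation of size and distance was 0.188 with the software's ratio and the value table, 0.143 with both channels above background, −0.0555 with the mean of probes, and −0.0956 to 0.11 without single replicates. Genes with a pair of probes that differed numbered 1 to 3 without single replicates. The cause was not tested. Calls were also lost for Zfand3 with the software's ratio (adjusted p = 0.0598), without a filter (0.0622), with median centring (0.182), without replicate 2 (0.189) and without replicate 3 (0.089). Each array sets 1 knockout against 1 wild-type RNA, so the ratios are already within-array comparisons, and the replicate number could not be added to the fit as a further block. Slide and scan as a block were not run, since all 3 arrays share them.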
